A study of Mus musculus with 10 samples.

Results

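The cell cycle and DNA replication genes described here form a given list of 44 genes: 12 that act in G1 or hold it back, 11 of DNA replication and nucleotide supply, and 21 of mitosis. Their probe sets, the groups of short probes that measure a transcript on the array, were found by gene symbol, with older symbols included. Of the 44 genes, 41 had a probe set assigned to that symbol alone, 59 probe sets in all, and 39 genes had at least 1 that passed the filter on dim signals (11 G1, 9 replication and 19 mitosis genes, 51 probe sets). Ccnb1 and Bub1b had no such probe set, those of Tyms carry several symbols, and Ccnd2 and Mcm6 did not pass the filter. Each gene is given by its brightest probe set, out of 9899 probe sets and 7098 genes tested on the whole array.

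Total RNA of mammary tumours from adult female mice aged 90 days was hybridised to Affymetrix mg_u74av2 arrays, which hold short oligonucleotide probes for known mouse transcripts. All groups share the MMTV-PyMT transgene: the polyomavirus middle T antigen, expressed in mammary epithelium from the promoter of mouse mammary tumour virus. The study, by its title, looked for virulence signatures in these tumours, and the comparisons here ask whether proliferation genes differ with the strain name. The titles of 9 of the 10 arrays name a strain: ILn, LP, MOLF and NZB with 2 arrays each, lettered A and B, and FVBn with 1 array. Because the strain label reads FVB/Nj throughout, the grouping depends on the titles. Each of the 9 titles calls the sample a mix without saying what was mixed, and no label states that arrays A and B are separate animals. The spread behind the p-values is thus that between arrays and may be technical. The title of the remaining array names no strain, and it entered no test.

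As background, a cell commits to division in G1, when D-type cyclins bind Cdk4 and release E2F factors from the retinoblastoma protein, while inhibitors such as those encoded by Cdkn1a and Cdkn2a hold this step back. Replication then uses the Mcm helicase at origins and draws on deoxynucleotides made by ribonucleotide reductase and thymidine kinase. In mitosis Cdk1 with cyclins A and B, the Aurora and Polo-like kinases and the spindle checkpoint separate the chromosomes, and the anaphase-promoting complex ends the phase. Most of these transcripts are made only in cycling cells, so in a piece of tumour their level follows both the share of cycling cells and the RNA per cell. In bulk samples such as these, fewer cells of a type and less RNA per cell cannot be told apart.

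Mitotic genes carry shared promoter elements, and the sequences below show them for members whose values are described later. They are the bases just before the annotated start of each gene, 5′ to 3′ on the gene's strand, from RefSeq on build GRCm38.p6, with 180 bases for each. Capitals mark matches on either strand to 3 motifs. The cell cycle homology region was searched as TTTGAA. The CCAAT box was searched by its own letters. The E2F site was searched in its forms TTCCCGC and, as the other form, TTGGCGC. The last shares letters with the CCAAT box read on the opposite strand, so matches to both can overlap. The 6 genes were chosen after their values were seen.
Top2a, chr11:99024190-99024369, minus strand: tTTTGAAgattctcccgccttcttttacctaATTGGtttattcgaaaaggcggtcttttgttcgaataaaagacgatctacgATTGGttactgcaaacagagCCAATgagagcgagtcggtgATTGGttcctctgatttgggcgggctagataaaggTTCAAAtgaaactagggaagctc
Cdk1, chr10:69352913-69353092, minus strand: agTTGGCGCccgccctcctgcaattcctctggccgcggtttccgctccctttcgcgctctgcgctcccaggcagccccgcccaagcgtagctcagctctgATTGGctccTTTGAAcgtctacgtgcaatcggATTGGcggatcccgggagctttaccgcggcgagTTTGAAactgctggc
Ube2c, chr2:164769749-164769928, plus strand: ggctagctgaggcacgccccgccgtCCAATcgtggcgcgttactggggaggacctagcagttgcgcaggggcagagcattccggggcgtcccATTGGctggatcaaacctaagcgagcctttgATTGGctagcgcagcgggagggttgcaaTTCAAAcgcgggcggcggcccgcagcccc
Cdc20, chr4:118437344-118437523, minus strand: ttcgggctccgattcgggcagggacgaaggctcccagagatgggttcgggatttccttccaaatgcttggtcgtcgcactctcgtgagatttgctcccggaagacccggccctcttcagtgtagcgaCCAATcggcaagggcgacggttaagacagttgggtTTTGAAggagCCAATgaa
Rrm1, chr7:102441515-102441694, plus strand: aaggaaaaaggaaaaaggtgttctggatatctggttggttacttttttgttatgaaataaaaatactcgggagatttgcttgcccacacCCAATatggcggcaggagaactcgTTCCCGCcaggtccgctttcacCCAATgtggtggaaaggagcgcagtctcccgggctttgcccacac
Mcm5, chr8:75109329-75109508, plus strand: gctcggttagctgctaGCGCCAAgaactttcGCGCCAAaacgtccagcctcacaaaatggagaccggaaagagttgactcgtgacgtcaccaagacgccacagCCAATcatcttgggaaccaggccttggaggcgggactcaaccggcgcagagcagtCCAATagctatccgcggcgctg

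RefSeq promoters were found for 36 of the 44 members, and the 250 bases before the start were searched. Ccnd1, Ccnd2, Mcm4, Ccna2, Cdc25c, Aurkb, Kif20a and Stmn1 were not matched. Among mitosis members 14 of 16 held a CCAAT box (87.5%), as did 8 of 10 replication members (80.0%) and 4 of 10 G1 members (40.0%), where the share over all 27025 genes was 37.5%. TTTGAA was present in 7 of the 16 mitosis members (43.8%), namely Ccnb2, Cdc20, Cdk1, Kif11, Mki67, Top2a and Ube2c. It was present in 1 of 10 replication members (Mcm2) and 1 of 10 G1 members (Cks1b), against 18.3% of all genes. All 7 of those mitosis promoters also held a CCAAT box, a pair found in 6.45% of all genes. An E2F match was present in 4 of 10 replication members (40.0%), 3 of 10 G1 members and 3 of 16 mitosis members (18.8%), against 6.45% of all genes. A match is a description of these letters and not a measured binding site.

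Values are quantile normalized log2 intensities, which put all arrays on the same distribution, with a floor of 4.75 below which signals were not told apart. Intensities of different probe sets are not compared with each other. 2 arrays, MOLF A and NZB B, were unlike the remaining 7: over the tested probe sets r was 0.927 between them, 0.812 to 0.868 with the rest, and 0.931 to 0.974 among the 7. For several of the results that use either array, the value without both is also given. For actin, the log2 signal at the 3′ end over that at the 5′ end, a measure of RNA integrity, lay between 0.22 and 0.28 for ILn and FVBn, and between 0.60 and 1.12 for LP, MOLF and NZB. Epithelial markers were bright on the 9 strain arrays, with Krt8, a luminal keratin, at 10.81 to 11.38 and Epcam, an epithelial adhesion protein, at 8.53 to 9.48. The luminal hormone receptor gene Esr1 lay at the floor except on MOLF A and NZB B.

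No cell cycle member passed the test in any of the 6 comparisons. The comparisons were each strain against the mean of its 3 counterparts, the mean of the 4 strains against FVBn, and the 4 strains against each other in an F test, with limma and Benjamini-Hochberg adjustment over all probe sets at 0.05. The count was 0 of 39 in each, where 0.404% of all probe sets passed for ILn, 0.313% for LP, 0.414% for MOLF, 0.101% for NZB, 0.313% for the 4 strains against FVBn and 0.748% in the F test. At an unadjusted p under 0.05 the counts of members were 2 for ILn (7.11% of all probe sets), 1 for LP (5.69%), 2 for MOLF (6.42%), 4 for NZB (8.4%), 1 against FVBn (3.41%) and 5 in the F test (7.9%). The 95% intervals, which are not adjusted, set a limit to this result. The median distance from estimate to bound over the members was 0.54 log2 units for a strain against the other 3 and 0.70 against FVBn. Differences smaller than these were mostly not detectable even at an unadjusted p under 0.05. The adjusted test needed larger ones: Kif20a in ILn, at -1.24, did not pass it (limma adjusted p = 0.0882).

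Over the 9 strain arrays the members spanned a range of 0.91 log2 units at the median, against 1.09 for all probe sets, and over the 7 arrays without MOLF A and NZB B a range of 0.63, against 0.70. In 22 of 39 members the highest and lowest of the 9 arrays lay within 1 log2 unit (56.4%, where 43.4% of all probe sets did so), and in 33 of 39 over the 7 arrays (84.6%, against 74.5%). The narrowest was Top2a, the topoisomerase that untangles replicated chromosomes and a common marker of cycling cells, which lay between 7.11 and 7.50 on all 9 arrays. Within pairs of the same strain name, over 2-fold gaps were seen in 0 of 39 members in ILn (2.24% of all probe sets), 1 in LP (Ube2c, 4.65%), 4 in MOLF (E2f1, Cdkn1a, Birc5 and Kif11, 20.0%) and 6 in NZB (Ccne1, E2f1, Rrm1, Aurkb, Kif11 and Cenpa, 21.8%).

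**Figure D1:**
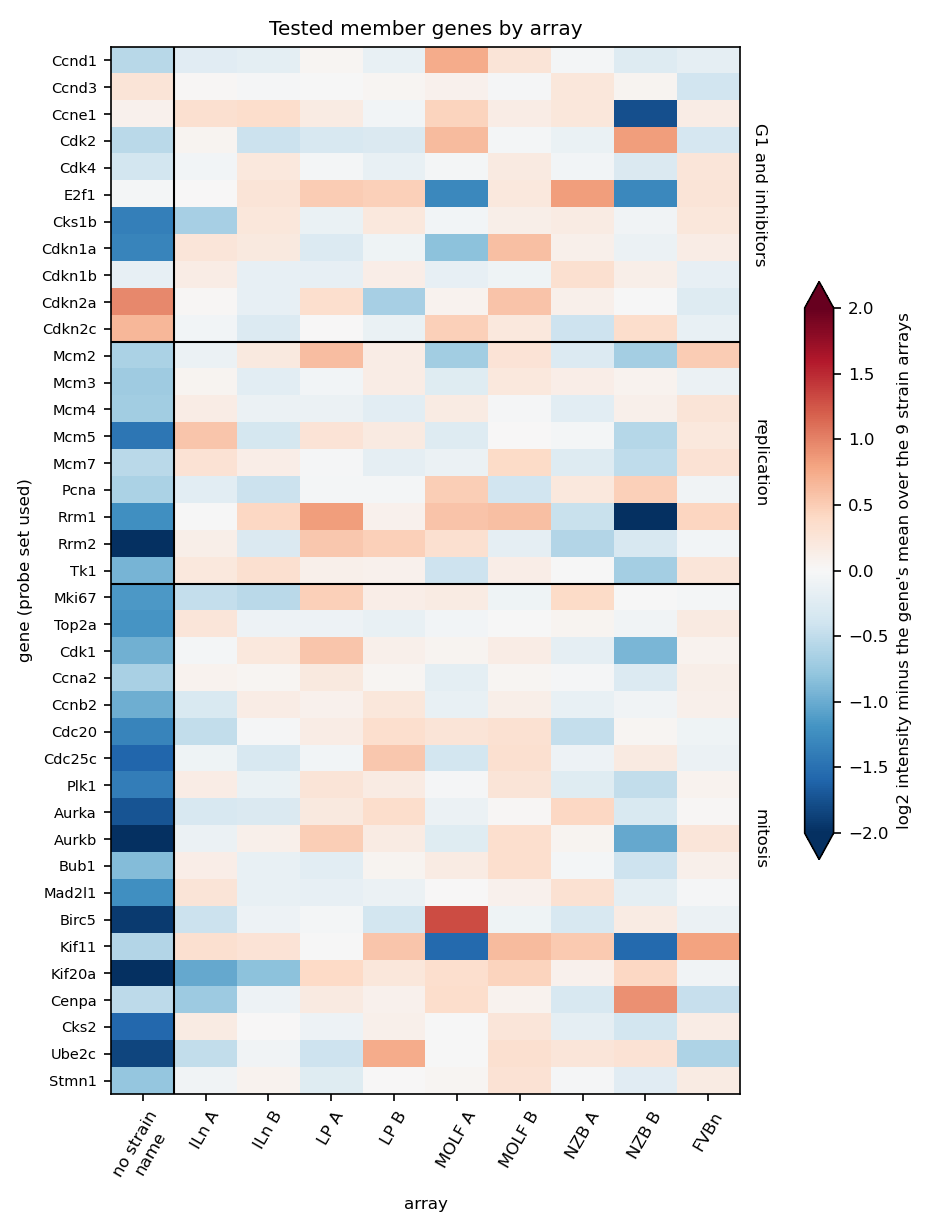
Heat map of the 39 tested members (rows, grouped into G1, replication and mitosis) on the array with no strain name and the 9 strain arrays (columns). Colour is the log2 intensity minus the gene's mean over the 9 strain arrays, limited to 2 log2 units either way; the array with no strain name is blue for most replication and mitosis genes, and the strongest single colours among the strain arrays are on MOLF A and NZB B.

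Among the G1 genes, Ccnd1, which encodes the D-type cyclin that starts G1 progression and is a known driver of mammary tumours, was higher in MOLF tumours, short of the test. It measured 9.90 and 9.42 on the MOLF arrays, against 8.93 and 8.96 on the ILn, 9.20 and 9.01 on the LP and 9.11 and 8.90 on the NZB arrays. FVBn measured 8.98. Both MOLF arrays lay above all other strain arrays, although MOLF A, the array that stands apart, was the higher of the pair. The MOLF difference was 0.64 (SE 0.164, 95% interval 0.25 to 1.02, 1.56-fold), with limma's adjusted p = 0.367. It was 0.36 without MOLF A and NZB B and 0.49 with the title date as a block. The other Ccnd1 probe set gave 0.60, with MOLF A at 7.91 inside the range of the other strains and MOLF B at 8.40 above it.

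Ccnd3, another D-type cyclin, was the only member with an unadjusted p under 0.05 in the 4 strains against FVBn. It lay at 8.63 to 8.88 on the 8 arrays of the 4 strains, against 8.28 on the FVBn array (difference 0.42, 95% interval 0.02 to 0.83, limma adjusted p = 0.999). Cdk4, the partner kinase, ran the other way, at 9.92 to 10.41 on the 8 arrays and 10.44 on FVBn (difference -0.27, adjusted p = 0.999). On its other probe set MOLF A, at 8.21, lay above FVBn at 8.18. Both gaps come from a single FVBn array that has no replicate.

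The remaining G1 members showed no pattern by strain, and several turned on MOLF A or NZB B. E2f1, the transcription factor of the G1 to S step, was at the floor on MOLF A and NZB B and at 6.04 to 6.88 on the other 7 arrays. The set used carries a manufacturer's suffix for probes that may match several members of a gene family. The other E2f1 set, which did not pass the filter, was at the floor on 8 of the 9 arrays. Ccne1, the cyclin that partners Cdk2, measured 5.50 on NZB B and 7.20 to 7.69 on the other 8 arrays. Cdk2 itself was highest on NZB B at 8.23 and on MOLF A at 8.03, against 6.97 to 7.45 on the other 7. Of the inhibitors, Cdkn1a, the p53-induced inhibitor, measured 6.80 on MOLF A and 8.22 on MOLF B, at opposite ends of the 9 arrays. Its other probe set ran the other way, with MOLF A highest of the 9 at 8.09 and MOLF B at 6.66. Cdkn1b stayed between the floor and 5.23, at the floor on 4 arrays, Cdkn2a between the floor and 5.98, and Cdkn2c between 7.78 and 8.67. Cks1b, an accessory protein needed to degrade the Cdkn1b product, measured 8.63 on ILn A, against 9.17 to 9.52 on the other 8 arrays.

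The replication genes held the widest strain difference of the module, in Rrm1, which encodes the large subunit of ribonucleotide reductase, and it rested largely on 1 array. Rrm1 measured 7.54 on NZB A and 5.49 on NZB B, against 7.98 and 8.40 on the ILn, 8.81 and 8.06 on the LP and 8.55 and 8.59 on the MOLF arrays. FVBn measured 8.41. The other Rrm1 probe set was at the floor on all 9 strain arrays and did not pass the filter. On the set used, both NZB arrays lay below every other strain array, yet they were themselves 2.06 log2 units apart. The difference was -1.88 (95% interval -3.06 to -0.71, limma adjusted p = 0.378). Without MOLF A and NZB B it was -0.86 with an adjusted p of 0.614, and without NZB A it was -2.91 with an adjusted p of 0.0366, the only setting tried in which a member passed.

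Rrm2, the small subunit whose level sets enzyme activity through the cycle, lay low in the same strain with a closer pair. It measured 7.87 and 8.13 on the NZB arrays, against 8.57 and 8.16 on the ILn, 8.99 and 8.93 on the LP and 8.78 and 8.28 on the MOLF arrays, with FVBn at 8.40. The NZB difference was -0.62 (95% interval -1.09 to -0.15, limma adjusted p = 0.499), and it was -0.67 without MOLF A and NZB B. LP held the highest Rrm2 values, with both arrays above the 6 others, and the LP difference was 0.66 (95% interval 0.19 to 1.13, limma adjusted p = 0.528). The NZB and LP comparisons share all 8 arrays, so these are not separate observations.

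NZB tumours had the longest set of members with both arrays below the other 6: Mcm7, Rrm1, Rrm2, Cdk1, Plk1 and Cks2, which is 6 of 39 (15.4%, where 4.24% of all probe sets did so). None lay above on the probe set used (3.74% of all probe sets). On the other Mki67 set the NZB arrays did, at 6.87 and 7.04 against 6.04 to 6.74 on the other 6. For Plk1 the low NZB position held on its brightest probe set and not on the other sets. The differences of the 6 low members ran from -1.88 to -0.34. This range and the count of 6 include NZB B and are given only with it. NZB B was below the 7 arrays outside the pair that stands apart for 17 of 39 members (43.6%, where 27.9% of all probe sets were) and above them for 5 (12.8%, where 28.2% were). On MOLF A, the other array of that pair, the counts were 9 below (25.7% of all probe sets) and 7 above (27.3%). The mean over the 9 replication members, relative to the 9 strain arrays, was -0.16 on NZB A and -0.51 on NZB B, against -0.04 to 0.24 on the ILn, LP and MOLF arrays. The median NZB difference was -0.41 over the replication members and -0.13 over all 39, against 0.00 for all probe sets. For the replication members it was -0.17 without MOLF A and NZB B. The muscle marker list, 14 of 15 genes tested, stood at 0.98 and 1.11 on the NZB arrays, against at least 1.5 on both LP arrays, -0.34 and -0.32 on ILn and -1.33 and -1.27 on MOLF; its part in these values was not tested.

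Of the helicase subunits, Mcm3 lay between 8.16 and 8.62 and Mcm4 between 7.48 and 7.96 on all 9 arrays. The other Mcm3 probe set spanned more, from 6.33 on MOLF A to 7.46. Mcm2 measured 7.32 on MOLF A and 7.33 on NZB B, against 7.73 to 8.63 on the other 7. Mcm5 ranged from 8.71 on NZB B to 9.84 on ILn A, where the other ILn array measured 8.93. Pcna, the sliding clamp of the replicative polymerases, was highest on MOLF A at 9.62 and NZB B at 9.61, with the other 7 at 8.71 to 9.35. Tk1, the thymidine kinase of S phase, measured 8.92 and 9.04 on the ILn arrays, against 8.04 to 8.84 across LP, MOLF and NZB. It was the only member in which both ILn arrays lay above the other 6 (6.6% of all probe sets did so), by 0.40 with a 95% interval of -0.13 to 0.92 and a limma adjusted p of 0.796, and by 0.19 without MOLF A and NZB B. FVBn measured 8.96 for Tk1, within the ILn values. The other Tk1 probe set, at the floor on 4 of the 9 arrays, FVBn among them, measured 6.19 and 5.66 on ILn and 5.66 on LP B. Its ILn difference was 0.79 (95% interval 0.10 to 1.48, limma adjusted p = 0.61).

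**Figure D2:**
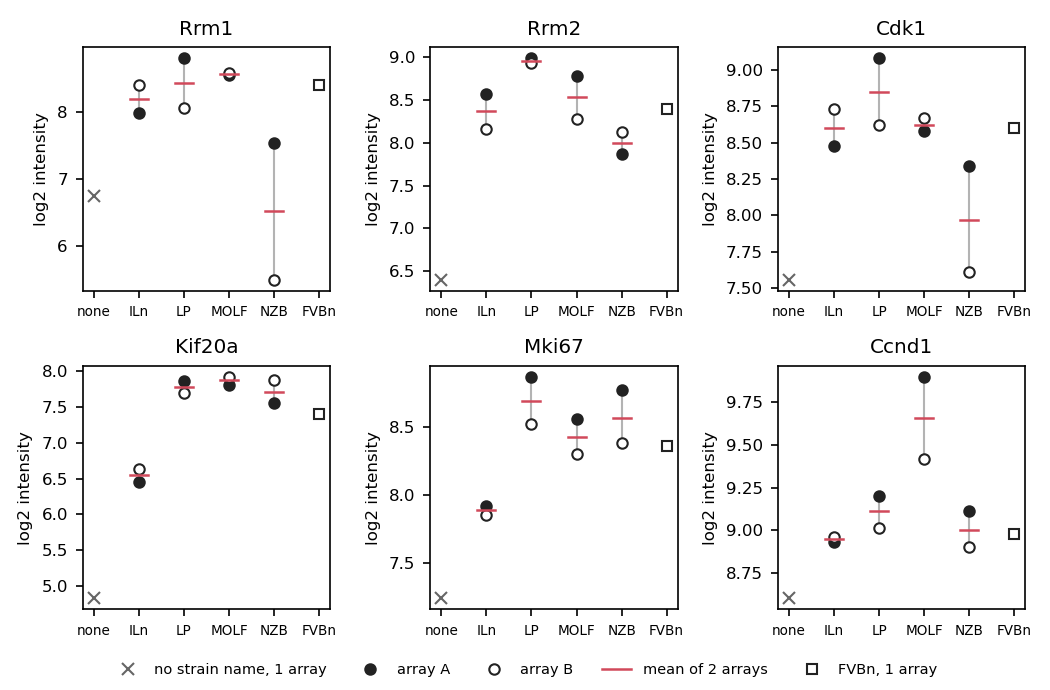
Log2 intensity of Rrm1, Rrm2, Cdk1, Kif20a, Mki67 and Ccnd1 on every array, with array A filled, array B open, the mean of 2 arrays as a red bar, FVBn as a square and the array with no strain name (none) as a cross; each panel has its own axis range. Both ILn points are low for Kif20a and Mki67, both MOLF points are high for Ccnd1, and the NZB points for Rrm1, at 7.54 and 5.49, are low but far apart.

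Among the mitosis genes, Kif20a and Mki67 were lower in ILn tumours, short of the test. Kif20a encodes a kinesin of the central spindle and measured 6.45 and 6.64 on the ILn arrays, against 7.86 and 7.70 on the LP, 7.81 and 7.92 on the MOLF and 7.55 and 7.88 on the NZB arrays, with FVBn at 7.40. Both ILn arrays lay below every other strain array, FVBn included. The difference was -1.24 (SE 0.209, 95% interval -1.73 to -0.75, 2.36-fold), and limma's adjusted p = 0.0882 was the smallest of any member in any comparison. Across the alternatives the adjusted p ran from 0.0543 without the filter to 0.99 without ILn A, and the difference from -1.33 to -1.15. The other Kif20a probe set did not share this pattern: it measured 6.03 and 5.87 on the ILn arrays, against 5.25 to 6.81 on the other 6, a difference of 0.08 with a 95% interval of -0.81 to 0.96. The brighter set carries the suffix by which the manufacturer marks probes that may match several members of a gene family.

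Mki67 encodes the Ki-67 protein, the standard stain for cycling cells in tumours. It measured 7.92 and 7.85 on the ILn arrays, against 8.87 and 8.52 on the LP, 8.56 and 8.30 on the MOLF and 8.77 and 8.38 on the NZB arrays, with FVBn at 8.36. The ILn arrays lay below all other strain arrays by a difference of -0.68 (SE 0.184, 95% interval -1.11 to -0.25, 1.60-fold, limma adjusted p = 0.364), which was -0.70 without MOLF A and NZB B and -0.53 with the title date as a block. The other Mki67 probe set gave -0.43, with a 95% interval of -1.15 to 0.29, and on it ILn B at 6.46 lay above LP A at 6.13.

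These were the only members with both ILn arrays below the other 6, 2 of 39 (5.13%, where 3.77% of all probe sets did so). Over the 19 mitosis members the median ILn difference was 0.01, with 10 above 0 and 9 below, where 52.1% of all probe sets were below. Without MOLF A and NZB B it was -0.13, with 3 above 0 and 16 below, where 50.7% of all probe sets were below. Beside this, the salivary gland marker list, 7 of 10 genes tested, stood at 3.04 and 2.93 on the ILn arrays and 3.69 on FVBn, against -2.60 to 0.03 across LP, MOLF and NZB. The fibroblast list, 13 of 14 genes tested, stood at 0.49 and 0.51 on the ILn arrays, against -0.37 to 0.23 on the other 7 strain arrays. The erythroid list, 6 of 10 genes tested, stood at 0.65 and 0.79, against -0.57 to 0.21. The actin ratio given above was also low on the ILn and FVBn arrays. The part of these lists and of RNA integrity in the ILn values was not tested.

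Cdk1, the kinase that drives entry into mitosis, measured 8.34 and 7.61 on the NZB arrays, against 8.48 and 8.73 on the ILn, 9.08 and 8.62 on the LP and 8.58 and 8.67 on the MOLF arrays. FVBn measured 8.60. NZB A lay only 0.14 log2 units below the next array, and NZB B set most of the difference of -0.72 (95% interval -1.27 to -0.17, limma adjusted p = 0.499), which was -0.37 without MOLF A and NZB B. Plk1, the Polo-like kinase, measured 8.33 and 8.09 on the NZB arrays, against 8.44 to 8.84 on the other 6 (difference -0.48, 95% interval -0.86 to -0.10). On its other probe sets NZB overlapped the other strains: a set gave an NZB difference of 0.13 (95% interval -0.24 to 0.51), and another gave -0.72 (95% interval -1.35 to -0.09), with NZB A at 7.36 above ILn A at 7.12.

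Of the cyclins that partner Cdk1, Ccna2 lay between 8.55 and 9.02 and Ccnb2 between 9.50 and 10.03 on all 9 arrays. Of the spindle checkpoint genes, Mad2l1 lay between 7.29 and 7.78, and Bub1 measured 5.78 and 5.96 on the MOLF arrays, against 5.21 to 5.75 on the other 6 strain arrays. Bub1 and Ccnd1 were the only members with both MOLF arrays above the other 6 (2.84% of all probe sets), and the Bub1 difference of 0.36 had a 95% interval of -0.25 to 0.97. None had both MOLF arrays below (3.38%). The other Bub1 probe sets were at the floor on all 9 strain arrays. Top2a was the only member with both LP arrays below the other 6 (2.55%), at 7.16 and 7.11 against 7.16 to 7.50 (the nearest values are equal to 2 decimals), a difference of -0.14 with a 95% interval of -0.65 to 0.38. Rrm2 was the only one with both LP arrays above (4.47%).

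Single arrays set the extremes of several mitosis members. Birc5, which encodes survivin of the chromosomal passenger complex, measured 9.58 on MOLF A, against 7.86 to 8.44 on the other 8 arrays. Kif11, the kinesin that pushes spindle poles apart, was at the floor on MOLF A and NZB B and at 6.30 to 7.10 on the other 7. Aurkb, the kinase of the passenger complex, measured 6.53 on NZB B, against 7.31 to 8.04 on the other 8. Cenpa, the centromeric histone, was highest on NZB B at 8.48, against 6.83 to 7.91 elsewhere. Cdc20, the activator of the anaphase-promoting complex, lay between 8.81 and 9.64, Aurka, the centrosome kinase, between 6.54 and 7.28, and Cdc25c, the phosphatase that activates Cdk1, between 7.17 and 8.07. Cks2, another Cdk accessory protein, lay between 7.88 and 8.49, with both NZB arrays at the low end, and Stmn1, a microtubule destabiliser, between 10.01 and 10.54. None of these 5 spanned 1 log2 unit over the 9 arrays. Ube2c, the ubiquitin carrier of the anaphase-promoting complex, differed within LP, with 6.26 on LP A and 7.42 on LP B. Ube2c and Ccnd3 were the members with all 8 arrays above FVBn (5.74% of all probe sets), Ube2c at 6.19 to 7.42 against 6.06 (difference 0.69, 95% interval -0.45 to 1.82). Cdk4, Cks1b, Mcm4 and Kif11 lay below FVBn on all 8 arrays (7.85%), Mcm4 by -0.30 (95% interval -0.90 to 0.31).

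**Figure D3:**
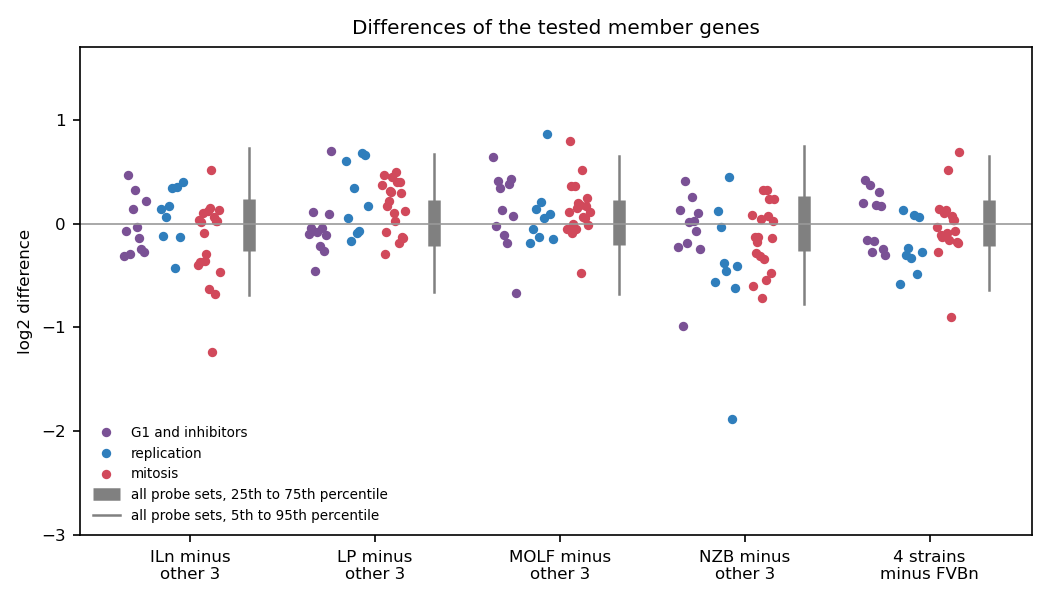
Log2 difference of each tested member (points: 11 G1, 9 replication and 19 mitosis genes) in 5 comparisons, each strain minus the mean of the other 3 and the 4 strains minus FVBn, beside grey bars for the 5th to 95th and 25th to 75th percentiles of all 9899 probe sets. Most members fall within the grey range; the lowest points are Rrm1 at -1.88 in NZB and Kif20a at -1.24 in ILn.

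Over the whole module, the 39 members had a median difference of 0.01 in ILn, 0.10 in LP, 0.11 in MOLF, -0.13 in NZB and -0.09 in the 4 strains against FVBn, where all probe sets had -0.02, -0.01, 0.01, 0.00 and 0.02. Without MOLF A and NZB B the medians were -0.08, 0.02, 0.18, -0.11 and -0.01. Within the arrays that share title date 4, which holds 1 array of each strain, they were -0.11, 0.04, 0.18, -0.10 and -0.02. MOLF leaned up and NZB down in these 3 sets of arrays. The sets are nested and all hold MOLF B and NZB A, so they are not separate observations. Between arrays of the same strain name the median over the members had an SD of 0.0961 log2 units, and the medians were not tested. With median centring in place of quantile normalization the MOLF median was -0.02 and the NZB median -0.24. Over the mitosis members alone the MOLF median was 0.11, with 14 of 19 above 0 and 5 below, where 48.7% of all probe sets were below. The NZB median was -0.13, with 8 above 0 and 11 below, where 50.1% of all probe sets were below. In the other title dates 1 array faces another: NZB B minus ILn A had a median of -0.15 and MOLF A minus LP A one of -0.05.

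**Figure D4:**
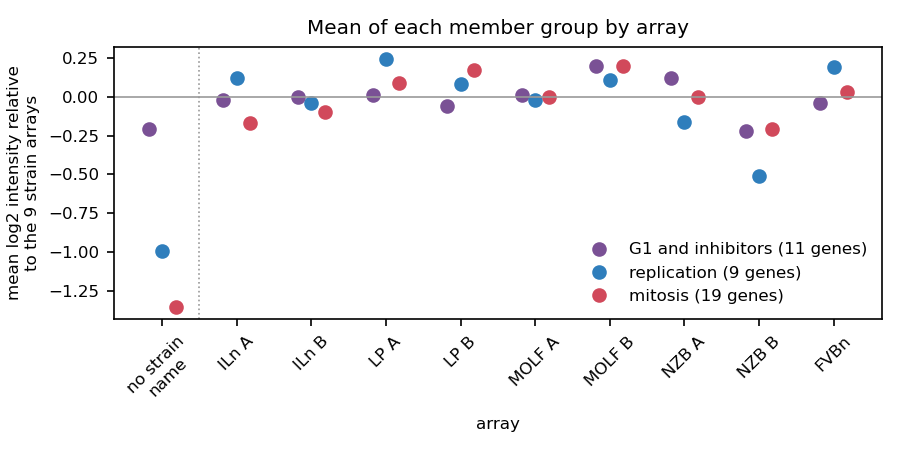
Mean log2 intensity of the G1, replication and mitosis members on each array, relative to the gene means of the 9 strain arrays. The 9 strain arrays lie between -0.51 and 0.24, with NZB B lowest for replication, and the array with no strain name lies at -0.99 for replication, -1.35 for mitosis and -0.21 for G1.

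Other genes of the same phases, from lists that hold no member, gave no called gene either. The counts were 0 of 20 other G1 genes, 0 of 42 other replication genes and 0 of 43 other mitosis genes in each of the 6 comparisons with limma. At an unadjusted p under 0.05 the most in any list and comparison was 4 of the 43 other mitosis genes, in NZB, where 8.4% of all probe sets passed. Of these, Kif22 was higher in NZB, by 0.41, and Bub3, Tacc3 and Ran were lower, at -0.45, -0.53 and -0.32. None of the 42 other replication genes had both NZB arrays below the other 6 strain arrays, where 3 of the 9 replication members and 4.24% of all probe sets did. Of the 43 other mitosis genes 2 did, Tacc3 and Ran, where 3 of the 19 mitosis members did. Both NZB arrays lay above the other 6 for Mnat1 and E2f5 of the G1 list, Cdt1 of the replication list, and Kif22 and Cdc23 of the mitosis list (3.74% of all probe sets). In the 4 strains against FVBn, 8 of the 42 lay below FVBn on all 8 arrays, where 7.85% of all probe sets did so: Orc4, Pole2, Rfc4, Rpa1, Hells, Tipin, Brca1 and Chek1. Uhrf1 was the only gene of that list above FVBn on all 8 arrays (5.74% of all probe sets). All of these turn on the single FVBn array. Rpa1, a subunit of the single-strand binding protein, lay at 7.88 to 8.78 on the 8 arrays, against 8.79 on FVBn.

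The array whose title names no strain had the lowest values of the module. It lay below all 9 strain arrays for 29 of 39 members, where 17.3% of all probe sets did so: 17 of 19 mitosis, 7 of 9 replication and 5 of 11 G1 members. Against the median of the 9 strain arrays its values were lower by a median of 2.28-fold over the mitosis, 1.73-fold over the replication and 1.23-fold over the G1 members. Kif20a measured 4.83 on it, against 6.45 to 7.92 on the strain arrays, and Aurkb was at the floor, against 6.53 to 8.04. Rrm2 measured 6.40, against 7.87 to 8.99, and Mki67 7.24, against 7.85 to 8.87. These values are of the brightest probe sets, and the other sets did not all follow. Mki67 on its other set measured 6.96, within 6.04 to 7.04 on the strain arrays, and Tk1 6.30, above 4.75 to 6.19. The other sets of Cdk4, Cdc25c, Plk1 and Kif20a lay below all 9, and the rest lay within the range of the 9. On the brightest sets, the members above all 9 were Ccnd3 at 8.92, against 8.28 to 8.88, and the inhibitors Cdkn2a at 6.38, against 4.75 to 5.98, and Cdkn2c at 8.86, against 7.78 to 8.67 (16.4% of all probe sets lay above all 9). It is a single array of no group and outside the tests, so these are values and not a comparison of groups. No other array shares its title date, so the date and the sample cannot be told apart.

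Markers of other tissues moved with it. The muscle list stood at 3.17 on this array, against -1.87 to 1.52 on the strain arrays, with 14 of 14 genes above all 9. The adipocyte list stood at 3.06, against -0.22 to 0.37, with 5 of 6 above all 9, and the fibroblast list at 1.46, against -0.37 to 0.51, with 10 of 13. The epithelial list stood at -1.15, against -0.14 to 0.20, with 8 of 13 genes below all 9. Krt8 measured 9.97, against 10.81 to 11.38 on the strain arrays, and Krt18 9.38, against 10.18 to 11.06. Both luminal keratins were thus below all 9, though still bright. Of the same list, Cldn7 measured 7.24, against 8.25 to 9.51, and Epcam 7.68, against 8.53 to 9.48. The milk list, 10 of 10 genes tested, stood at -0.63, against -0.26 to 0.24, with 5 genes below all 9 and 4 above. Its gene Wap was at the floor, against 10.19 to 11.53. The part of these tissues in the low mitosis values was not tested.

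**Figure D5:**
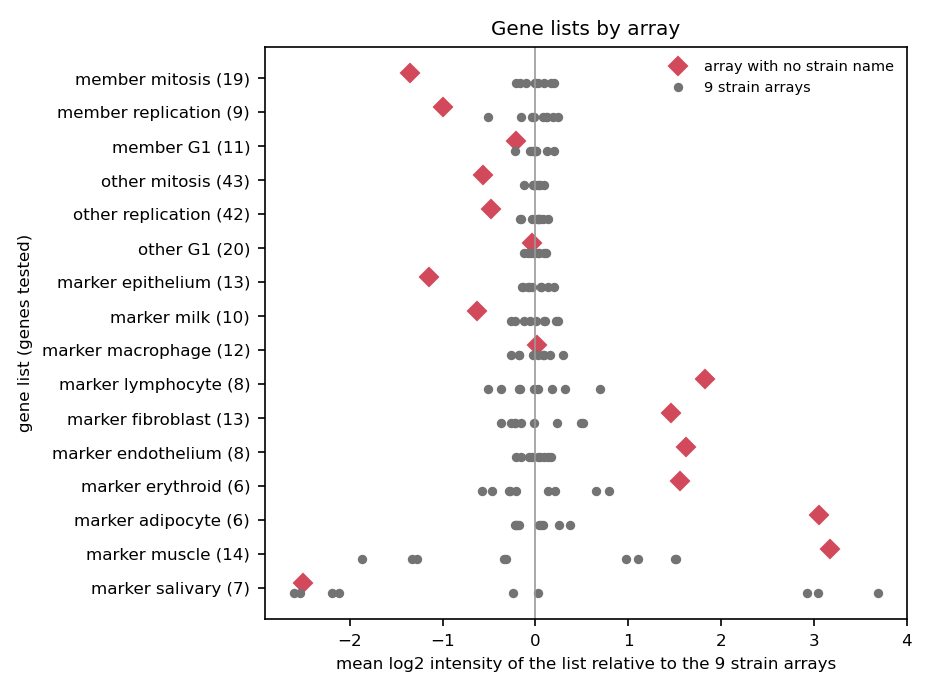
Mean log2 intensity of each gene list relative to the 9 strain arrays (horizontal axis), on the array with no strain name (red diamonds) and on the 9 strain arrays (grey points), with the number of genes tested in brackets. The member mitosis list at -1.35 and replication list at -0.99 lie below all 9 strain arrays, the muscle list at 3.17 and adipocyte list at 3.06 above them.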

How the data were processed

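Biotin-labelled total RNA was measured on 10 arrays, 9 of them with a strain name. Each deposited file gives 1 linear intensity per probe set, per the file headers; how probes were summarised is not stated in any source at hand. All 10 columns were used. Strain arrays were quantile normalized on the log2 scale in R 4.3.3 with limma 3.58.1, and the array without a strain name was mapped onto that distribution; the log2 values were made here from the deposited intensities. Controls were left out, values under the 30th percentile (intensity 27, log2 4.75) were raised to it, and 9899 probe sets above it in at least 2 of the 9 arrays were tested. The limma model (lmFit, eBayes with an intensity trend) had 5 strain means and 4 residual degrees of freedom, with Benjamini-Hochberg adjustment of p over all probe sets. All strains shared 1 spread per probe set, with a median SD of 0.337 for a single array. The spread was unequal between strains: the SD of A minus B over the probe sets was 0.379 (ILn), 0.467 (LP), 0.863 (MOLF) and 0.913 (NZB). These are SDs of a difference of 2 arrays, which varies more than 1 array, so they are not on the scale of 0.337. The FVBn array was assumed to have the shared spread. The number of arrays limits the precision.

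Gene symbols came from the platform annotation, updated through the RefSeq table of GRCm38.p6, used for names. The test was run on simulated independent arrays with the same spread for all strains and changes placed in LP. That setting does not cover the unequal spreads given above or the arrays that stand apart together. Named genes were the members past the test or, failing that, up to 3 each way per comparison with the largest difference whose arrays did not overlap; other members illustrate their role. Members and lists were chosen with earlier results of these data known. Alternatives were median centring, no filter and a stricter filter, title date and array letter as blocks, and leaving out arrays. Dates in the titles, whose meaning is not stated, were numbered 1 to 4.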

Additional observations from a re-analysis of the deposited data

How the results depend on the processing

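No result changed sign past its test under any alternative. No member passed the test except Rrm1 in NZB without NZB A, so the count of members there ran from 0 to 1 when arrays were left out. The array letters do not pair the samples: r of A minus B between strains ran from -0.71 to 0.13, and MOLF A correlated best with NZB B. With the letter as a replicate block probe sets past the test became 9 in LP, 26 in MOLF, 20 against FVBn and 31 in the F test. With the title date as a block they became 13 in ILn, 0 in LP (347 at an unadjusted p under 0.05), 6 in MOLF, 0 in NZB (487), 10 against FVBn and 18 in the F test; title dates 2 and 3 hold 1 array of 2 strains each. Without MOLF A and NZB B they became 25 in ILn, 5 in LP, 0 in MOLF (837), 0 in NZB (789) and 19 in the F test, with fewer arrays in the fit. Median centring gave 9 in LP, 23 in MOLF, 4 in NZB and 36 in the F test, and moved the member median to -0.02 in MOLF and -0.24 in NZB. Without the filter there were 21 in NZB and 102 against FVBn, and with the stricter filter 18 in ILn and 14 against FVBn. The main counts were 40 in ILn, 31 in LP, 41 in MOLF, 10 in NZB, 31 against FVBn and 74 in the F test. Leaving out each array in turn gave 5 to 38 in ILn, 0 to 25 in LP, 4 to 25 in MOLF, 0 to 35 in NZB, 16 to 32 against FVBn and 14 to 59 in the F test probe sets past the test, and an ILn member median from -0.12 to 0.03. Where the lowest count was 0, between 402 and 511 probe sets in LP and 543 and 601 in NZB had an unadjusted p under 0.05. Where an arm keeps 1 array, that array is assumed to vary like the others. For the member medians and the count on the array with no strain name (29, or 25 after median centring and 33 against the 7 arrays, both chosen after seeing the data), the cause of each shift was not tested. Alternatives left the members' direction as given in the report for the 15 differences named by the rule.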

Other observations

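Outside the module, other mitosis and replication genes had values on the array with no strain name as follows, where 17.3% of all probe sets lay below all 9 strain arrays and 16.4% above. Of the other mitosis genes 23 of 43 lay below all 9 strain arrays on it, Kif2c, Kif23, Ttk, Nek2, Prc1 and Foxm1 among them, and 1, Anapc5, lay above. Of the other replication genes 15 of 42 lay below and 0 above, with the helicase loader Cdc6, the ligase Lig1 and the flap nuclease Fen1 among those below. Of the other G1 genes 4 of 20 lay below (Rb1, Cdc25a, Gadd45a and Mybl2) and 3 above (Cdkn1c, Ccng1 and Ccng2), near the shares over all probe sets. Foxm1, the transcription factor of mitotic genes, measured 8.66 on it, against 8.90 to 10.21 on the strain arrays. Cdkn1c, a Cdk inhibitor, measured 8.17, against 5.51 to 7.36. The lymphocyte list stood at 1.83, against -0.51 to 0.70, and the endothelial list at 1.62, against -0.21 to 0.17. The macrophage list stood at 0.02, within the -0.26 to 0.30 of the strain arrays. These are values of 1 array of no group.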
